A study of Mus musculus with 13 samples.

Results

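Igf1, Igfals and Igfbp2 are the 3 genes of the insulin-like growth factor axis in a panel of 100 genes that was counted in mouse liver sections during regrowth after partial hepatectomy. Their rows were found by symbol, and all 3 had at least 10 counts in each of the 13 sections. The livers came from male C57BL/6 mice labelled as 2 months old, from which 2/3 of the liver had been removed and whose regrown lobes were frozen and cut. Single transcripts were located in them by Molecular Cartography (Resolve Biosciences), in which fluorescent labelling is repeated over many rounds. There were 2 sections each of 0 h, 24 h, 48 h and 72 h, 3 of 14 d, and 1 each of 3 mo and 6 mo. No genetic change or drug is named in the labels, and all groups share strain, sex and surgery. At 0 h the labels name partial hepatectomy as well, and they do not say whether those lobes were taken at the operation. Mice operated on at 2 months were older by 3 mo and 6 mo, and for those times age and time after surgery cannot be told apart.

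Insulin-like growth factor 1, the product of Igf1, is a hormone that the liver supplies to the blood under the control of growth hormone, which acts through the kinase JAK2 and the transcription factor STAT5. In the blood most of it travels in a complex of 3 proteins: the hormone, a binding protein such as IGFBP3 or IGFBP5, and the acid-labile subunit, a liver protein encoded by Igfals that keeps the complex in the circulation. IGFBP2, the product of Igfbp2, binds the hormone without joining that complex, is known to rise in fasting and when insulin or growth hormone is low, and can limit the access of the hormone to its receptor. A liver lobule runs from portal veins, where blood enters, to a central vein, where it leaves, and hepatocytes along this path make different sets of enzymes.

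The stretches in front of the start sites are shown because STAT5, forkhead factors and Sp1 are textbook regulators of this axis. A link of these letters to the time courses or positions below was not tested. RefSeq promoter windows of build GRCm38.p6 matched all 3 genes by symbol, 1 window for Igf1, 3 for Igfals and 2 for Igfbp2, each read here for the 250 bases before the start. Searched on both strands were the STAT motif TTCNNNGAA, the forkhead motif TGTTTAC and the GC box GGGCGG, and capitals mark their matches. The first 2 sequences are from Igfals, the first upstream window (chr17:24877594-24877843, plus strand) and the surroundings of a match 58 bases before the second start (chr17:24878163-24878191, plus strand). The third is the first window of Igfbp2 (chr1:72824230-72824479, plus strand).
Igfals, first window: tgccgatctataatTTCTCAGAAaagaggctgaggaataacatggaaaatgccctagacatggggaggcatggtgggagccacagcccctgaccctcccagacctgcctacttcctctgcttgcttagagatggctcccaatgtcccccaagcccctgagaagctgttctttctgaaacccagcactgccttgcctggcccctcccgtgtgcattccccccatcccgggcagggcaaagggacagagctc
Igfals, second window, STAT match: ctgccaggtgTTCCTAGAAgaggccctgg
Igfbp2, first window: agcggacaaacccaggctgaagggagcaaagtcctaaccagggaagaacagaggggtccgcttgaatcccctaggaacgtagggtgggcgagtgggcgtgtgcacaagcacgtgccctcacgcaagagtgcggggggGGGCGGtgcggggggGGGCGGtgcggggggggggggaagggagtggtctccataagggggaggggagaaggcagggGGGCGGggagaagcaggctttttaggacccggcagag
The first 2 Igfals windows held a STAT match, TTCTCAGAA at 236 bases and TTCCTAGAA at 58 bases before the start, and the second window also held TGTTTAC at 242 bases and GGGCGG at 34, while the third held GC boxes alone. Of 32851 mouse windows of 250 bases, 7.02% held the STAT motif, 3.17% the forkhead motif and 32.7% the GC box. The first Igfbp2 window carried 3 GC boxes, at 113, 98 and 37 bases. The second Igfbp2 window and the Igf1 window, which are not printed, had no match to these letters. A match is a description of the letters and was not tested for binding.

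The sections held 4586 to 15817 cells and 1678015 to 9619206 transcripts in cells, with 270 to 619 transcripts per cell. Hepatocyte genes of a marker list, 13 of 14 of them in the panel and Cps1 and Cyp2e1 among them, summed to 573174 to 749893 counts per 1000000, so that the defining markers of the labelled tissue were present. Counts of sections of the same time lay further apart than sampling noise allows (chi-square over its degrees of freedom 198.9 or more). The sections of 0 h, 1 on slide 1 and 1 on slide 2, differed most: section 2 differed from section 1 by -0.51 in log2 CPM for Igf1, -1.92 for Igfals and 0.69 for Igfbp2. For Igfals only 7 of 99 genes differed more between them. Slide 3 held the 14 d sections and nothing else, so for 14 d the slide cannot be told apart from time. The labels do not say whether sections came from separate animals, and p-values then measure only the spread between sections, which may be technical. Cells that carried markers of other types were present throughout, as described at the end. Fewer cells of a type cannot be told apart from less RNA per cell in sums over a section.

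The mean level of Igf1 was highest at 48 h and lowest at 6 mo. In counts per 1000000 (CPM) scaled by TMM, which assumes that most genes keep their level, Igf1 stood at 19511 and 13687 at 0 h, 19829 and 13852 at 24 h, and 19325 and 23307 at 48 h. It stood at 13456 and 10438 at 72 h, 8815, 12242 and 11998 at 14 d, 16944 at 3 mo and 6572 at 6 mo. The 72 h and 14 d sections all lay below both 0 h sections, the 24 h sections overlapped with them, and the 6 mo section lay below every other section. Against 0 h the log2 change in edgeR's quasi-likelihood fit was 0.06 ± 0.33 at 24 h (SE; 1 library of 2 sections against n = 2), 0.36 ± 0.27 at 48 h (n = 2 against 2), -0.47 ± 0.27 at 72 h (n = 2 against 2) and -0.59 ± 0.24 at 14 d (n = 3 against 2). It was 0.03 ± 0.33 at 3 mo and -1.34 ± 0.35 at 6 mo (1 section against n = 2 each). Only the fall at 6 mo passed (edgeR adjusted p = 0.0102, Benjamini-Hochberg over 99 genes), while 72 h (0.251) and 14 d (0.074) did not. From 48 h to 72 h Igf1 changed by -0.84 ± 0.27 (edgeR adjusted p = 0.0545), just outside the threshold of 0.05. That change was called by DESeq2 (-0.85, adjusted p = 0.000589), with total-count scaling (-1.10, edgeR adjusted p = 0.0437), with no filter (-0.82, 0.0408) and with the 24 h sections as 2 libraries (-0.83, 0.0447). It was not called relative to cell number, over all transcripts, or with the slide or the replicate as a block. Nor was it called with Cyp2e1 left out of the scaling or with the 14 d sections as 1 library. Leaving out each section in turn, it ranged from -0.96 to -0.66. The change at 14 d was called with Cyp2e1 left out of the scaling (-0.70, edgeR adjusted p = 0.0218). Relative to cell number it was called the other way, as higher (0.85, edgeR adjusted p = 0.0287). There the median log2 change of all genes tested was 1.57. Without section 2 of 0 h the change of Igf1 was -0.73 at 72 h and -0.86 at 14 d, with 1 section left at 0 h. Leaving out each section in turn, it ranged from -0.73 to -0.30 at 72 h and from -0.86 to -0.33 at 14 d.

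Igfbp2 took another course. It stood at 10882 and 17530 CPM at 0 h, 11423 and 9942 at 24 h, 18109 and 18017 at 48 h, and 20329.5 and 26293 at 72 h. It then stood at 12299.5, 10906 and 9810 CPM at 14 d, 14524 at 3 mo and 30653 at 6 mo. The sections of 48 h, 72 h and 6 mo lay above both sections of 0 h, and those of 14 d below both sections of 72 h. Igfbp2 fell by 1.08 ± 0.24 in log2 from 72 h to 14 d (n = 3 against 2, edgeR adjusted p = 0.00209), and it rose by 1.11 ± 0.31 from 0 h to 6 mo (1 section against n = 2, edgeR adjusted p = 0.0179). The change of 0.71 ± 0.27 at 72 h had an edgeR adjusted p of 0.0749 and those at 24 h (-0.40 ± 0.33), 48 h (0.35 ± 0.27), 14 d (-0.37 ± 0.24) and 3 mo (0.03 ± 0.32) did not pass. Without section 2 of 0 h the 72 h change was 1.09, and leaving out each section in turn it ranged from 0.31 to 1.09. The order of the means ran from 10683 CPM at 24 h over 11005 at 14 d, 14206 at 0 h, 14524 at 3 mo, 18063 at 48 h and 23311 at 72 h to 30653 at 6 mo. The sections of 24 h (SD 1047, n = 2) and 14 d (SD 1248, n = 3), neighbours in that order, overlapped, as did those of 0 h (SD 4701, n = 2) with 24 h and 14 d.

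**Figure D1:**
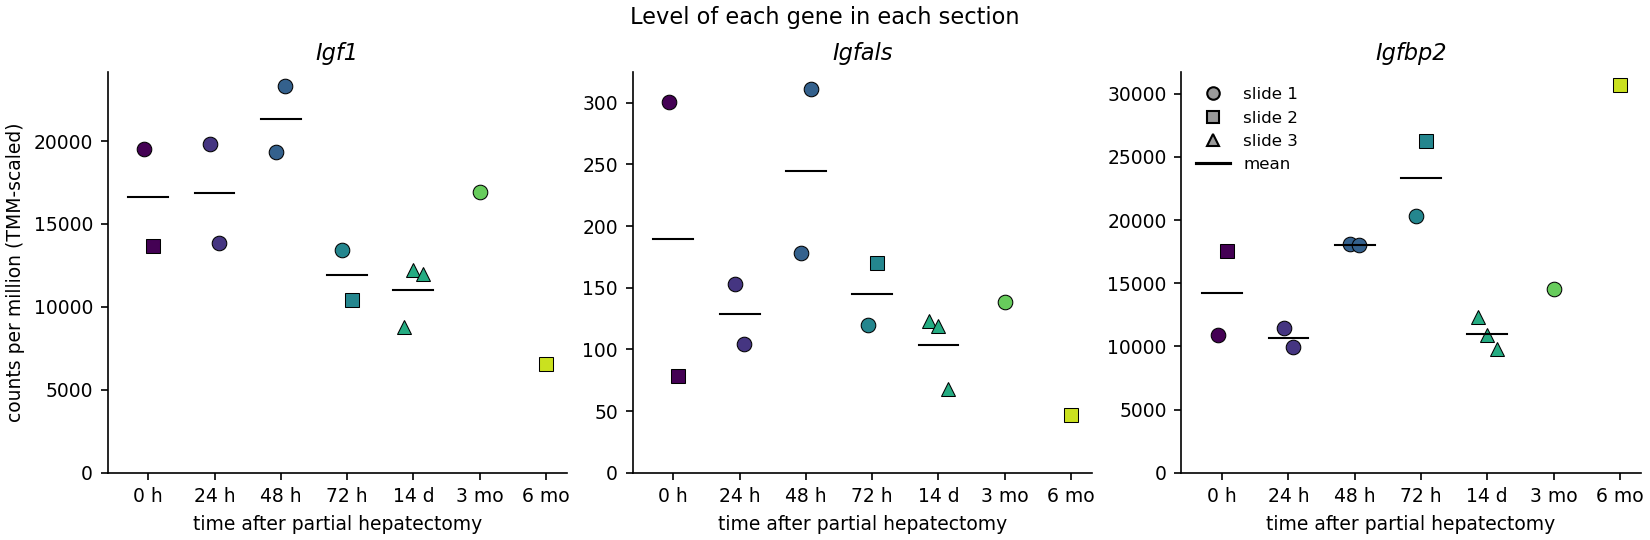
Counts per 1000000, scaled by TMM, of Igf1, Igfals and Igfbp2 in each of 13 sections (points, shaped by slide) at 7 times, with the mean of times that have more than 1 section (lines). Igf1 ends at 6572 and Igfbp2 at 30653 in the section of 6 mo, and the Igfals points of 0 h lie apart, at 300.2 and 78.4.

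Igfals was scarce. Its counts ran from 118 at 6 mo to 1340 in section 2 at 48 h. In CPM it stood at 300.2 and 78.4 at 0 h, 153 and 104 at 24 h, 178 and 311 at 48 h, and 120 and 170 at 72 h. It stood at 123, 119 and 67.8 at 14 d, 138 at 3 mo and 46.8 at 6 mo. All later sections except section 2 of 48 h, section 3 of 14 d and 6 mo lay between the 0 h sections. As a share of all counts, with exact 95% binomial intervals that cover counting error only, Igfals made up 241 counts per 1000000 (226 to 257) and 48.7 counts per 1000000 (42.1 to 56.1) in the sections of 0 h and 40.8 counts per 1000000 (33.8 to 48.9) at 6 mo. No change of Igfals passed: the log2 change was -2.02 ± 0.77 at 6 mo (edgeR adjusted p = 0.0789), -0.88 ± 0.51 at 14 d (0.216), 0.37 ± 0.56 at 48 h (0.635) and -0.39 ± 0.56 at 72 h (0.73). Without section 1 of 0 h the change at 14 d was 0.41 and without section 2 it was -1.55, so that the section of 0 h decides its direction. The sign at 24 h, 3 mo and 72 h turned in the same way without section 1 of 0 h (0.93, 0.93 and 0.79). Without that section Igfals was called higher at 48 h (1.504, edgeR adjusted p = 0.0225), and without section 2 it was called lower at 14 d (0.0163) and 6 mo (-2.67, 0.0084).

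Of the 3 genes, 2 were called at 6 mo, 1 higher and 1 lower, where 23.2% of the 99 genes tested were called, 11.1% higher and 12.1% lower. From 72 h to 14 d 1 of 3 was called, lower, where 27.3% of the genes tested were called and 17.2% were lower. At 24 h, 48 h, 72 h, 14 d and 3 mo edgeR called 0 of 3, where 22.2%, 23.2%, 15.2%, 28.3% and 0% of all genes tested were called. An unadjusted p under 0.05 was reached by 1 of 3 at 72 h, Igfbp2, and 1 of 3 at 14 d, Igf1. DESeq2 called Igf1 lower at both times (-0.65 and -0.60 in log2), and also called Igfals lower at 6 mo (-1.93). Between 24 h and 48 h (5.05% called) and between 48 h and 72 h (9.09% called) edgeR called 0 of 3. There 1 of 3 had an unadjusted p under 0.05 each time, Igfbp2 and Igf1, and DESeq2 called 0 and 1, again Igf1. All comparisons with 0 h share its 2 sections.

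Calls at 6 mo rest on 1 section. Igf1 at 6 mo was no longer called with total-count scaling (-1.08, edgeR adjusted p = 0.0653), with the slide as a block (-1.18, 0.0638), relative to cell number (-1.41, 0.0607) or with the 14 d sections as 1 library (-1.17, 0.0858). Igfbp2 at 6 mo was not called with the slide as a block (0.79, edgeR adjusted p = 0.175), relative to cell number (1.11, 0.0689), over all transcripts (1.07, 0.0592), with the 14 d sections as 1 library (1.23, 0.0607), or when the first (0.0601) or the second (0.0555) section of 48 h or the first of 72 h (0.0555) was left out. The fall of Igfbp2 from 72 h to 14 d was smaller and not called relative to cell number (-0.48, edgeR adjusted p = 0.23). The change was of like size but was not called with the 14 d sections as 1 library (-0.94, edgeR adjusted p = 0.321), with a replicate block (-0.87, 0.0762), and without section 1 (-1.18, 0.0575) or section 2 (-0.89, 0.0604) of 72 h. Macrophage markers Adgre1 and Lyz2, 2 of 5 listed, summed to 10547 counts per 1000000 at 6 mo against 5045 and 4027 at 0 h, and the stellate gene Lrat to 2985 against 1750 and 1258. The 2 macrophage markers differed: in TMM-scaled CPM Adgre1 stood at 888 at 6 mo against 1076 and 895 at 0 h. Lyz2 stood at 11211 against 5203 and 5583. From 72 h to 14 d the macrophage sum went from 4688 and 3616 to 7042, 8188 and 7436, the endothelial sum (4 of 8 listed) from 5100 and 4028 to 5483, 6041 and 6296, and Lrat from 4542 and 2424 to 1484, 1644 and 1758. In CPM Adgre1 went from 1110 and 1039 to 514, 784 and 564. Lyz2 went from 3879 and 2607 to 4783, 6590 and 5661. Of the endothelial genes, Pecam1 went from 4444 and 3449 to 3570, 4830 and 4718. Wnt2 went from 450 and 303 to 269, 304 and 262. Rspo3 went from 286 and 120 to 131, 158 and 132, and Wnt9b from 247 and 191 to 154, 147 and 159. The part of other cell types in these results was not tested.

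Within slides the directions at 72 h and 6 mo were as follows. On slide 1 the 72 h section differed from the 0 h section by 0.90 in log2 CPM for Igfbp2, -0.54 for Igf1 and -1.33 for Igfals. On slide 2 the differences were 0.58, -0.39 and 1.12, so that Igfbp2 and Igf1 kept their sign and Igfals did not. The sign of Igf1 on slide 2 holds for TMM-scaled levels: as a share of all counts it was 0.851% at 0 h and 1.03% at 72 h. The 6 mo section lay on slide 2, where it differed from 0 h by 0.81 for Igfbp2, -1.06 for Igf1 and -0.74 for Igfals. These pairs are single sections and have no test.

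Scaling sets how the middle times read. As a share of all counts in cells, Igf1 stood at 1.57% and 0.851% at 0 h, 2.05% and 2.87% at 48 h, 1.26% and 1.03% at 72 h, 1.17% to 1.43% at 14 d, 1.88% at 3 mo and 0.573% at 6 mo. With total-count scaling edgeR called Igf1 higher at 48 h (1.02, adjusted p = 0.021) and Igfbp2 higher at 48 h (1.08, 0.00787) and 72 h (1.20, 0.00785). Igfbp2 made up 0.874% and 1.09% of counts at 0 h, 1.92% and 2.22% at 48 h, 1.91% and 2.61% at 72 h, and 2.67% at 6 mo. Total-count scaling moved the median log2 change of all genes tested from 0.21 to 0.92 at 48 h and from 0.12 to 0.54 at 72 h. The calls of the middle times under that scaling are thus read against a panel that is higher as a whole. At 14 d the change of Igf1 turned from -0.59 to 0.13 and that of Igfbp2 from -0.37 to 0.45, while the median of all genes went from 0.07 to 0.83.

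Transcripts per cell, which need no scaling between genes, were 5.35 and 2.88 for Igf1 at 0 h, 7.25, 8.36 and 6.66 at 14 d and 1.55 at 6 mo. For Igfbp2 they were 2.99 and 3.69 at 0 h, 9.79 and 11.6 at 72 h, 10.1, 7.45 and 5.44 at 14 d, and 7.21 at 6 mo. At 72 h and 14 d all sections therefore held more Igfbp2 per cell than either 0 h section. So did those of 48 h (6.41 and 8.08), 3 mo (5.52) and 6 mo and section 1 of 24 h (3.87), but not section 2 of 24 h (3.51). Transcripts of all genes per cell were 342 and 339 at 0 h, 512 and 446 at 72 h, 464 to 619 at 14 d and 270 at 6 mo.

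The ratio of Igfbp2 to Igf1 within a section does not depend on scaling. In log2 it was -0.84 and 0.36 at 0 h, -0.80 and -0.48 at 24 h, -0.09 and -0.37 at 48 h, and 0.60 and 1.33 at 72 h. The 14 d sections gave 0.48, -0.17 and -0.29, that of 3 mo -0.22 and that of 6 mo 2.22. Both sections of 72 h lay above both of 0 h, whereas those of 48 h and 14 d overlapped with them or lay between. The mean of the 48 h and 72 h sections was 0.61 above that of 0 h (exact permutation test, two-sided, p = 0.4, smallest possible 0.133, adjusted 0.8 over 6 ratio tests). At 14 d the mean difference was 0.25 (exact permutation p = 0.6, smallest possible 0.2, adjusted 0.8). Neither number of sections can reach 0.05. Ratios of Igf1 to Igfals were 6.02 and 7.45 in log2 at 0 h and 5.94 to 7.47 in later sections, and the 4 tests of ratios with Igfals gave exact permutation p values of 0.667 to 0.8.

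Along the lobule Igf1 was a portal gene in every section. Tiles of 400 coordinate units, a unit whose length is not stated in the sources used here, were ordered by a score of 9 central genes (such as Glul and Cyp2e1) minus 6 portal genes (such as Pck1 and Ass1), none of them a member. The tiles were cut into 5 layers of equal number, layer 1 the most central. In section 1 of 0 h Igf1 rose from 6077 transcripts per 1000000 in layer 1 over 8560, 16282 and 25403 to 27683 in layer 5. At 6 mo it went from 2376 to 9604, lower in every layer than in section 1 of 0 h. Over 12 sections layer 5 held 2.09 to 4.55 times the share of layer 1 (median 3.61), and per tile 2.04 to 4.46 times. Layer 5 was the highest in 11 of 12 sections, the exception being 3 mo with layer 4.

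The Spearman correlation of the share of Igf1 with the central-minus-portal score across tiles was -0.91 and -0.82 at 0 h, -0.80 and -0.79 at 24 h, -0.87 and -0.84 at 48 h, and -0.87 and -0.86 at 72 h. It was -0.84 and -0.85 at 14 d, -0.87 at 3 mo and -0.76 at 6 mo. By limma on Fisher-transformed values the portal gradient passed at all 7 times (adjusted p from 4.8e-10 to 4.14e-06 over 62 genes). A portal gradient passed in 56.5% of these 62 genes at 0 h, and in 37.1%, 40.3%, 50%, 46.8%, 61.3% and 53.2% at the later times in their order, so that the direction is common in the panel. By size Igf1 ranked between 4 and 11 among the most portal genes of a section. Across tiles the share of Igf1 was most like that of Hsd17b13, a lipid droplet enzyme gene (median Spearman 0.86 over 12 sections), Gls2, which encodes a portal glutaminase (0.85), and Fbp1, a gluconeogenic enzyme gene (0.83), the first 2 of which are portal genes of the score, and tiles of a section share library and depth.

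Igfbp2 peaked between the veins. In section 1 of 0 h its share was 1450 transcripts per 1000000 in layer 1, 6066 in layer 2, 15367 in layer 3, 18037 in layer 4 and 8648 in layer 5. In section 2 it was 3495, 13857, 20392, 14863 and 9794. At 72 h section 2 ran over 6115, 30234, 48855, 37835 and 22374, and at 6 mo the values were 2878, 20183, 50578, 40946 and 26428. Layer 3 was the highest in 10 of 12 sections and layer 4 in the other two, section 1 of 0 h and section 2 of 48 h. Layer 3 held 3.79 to 17.6 times the share of layer 1 and 1.45 to 2.25 times that of layer 5, and 29.3% to 34% of the Igfbp2 transcripts of a section. With tiles cut into 9 layers the peak lay in layer 4, 5 or 6 in all 12 sections.

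**Figure D2:**
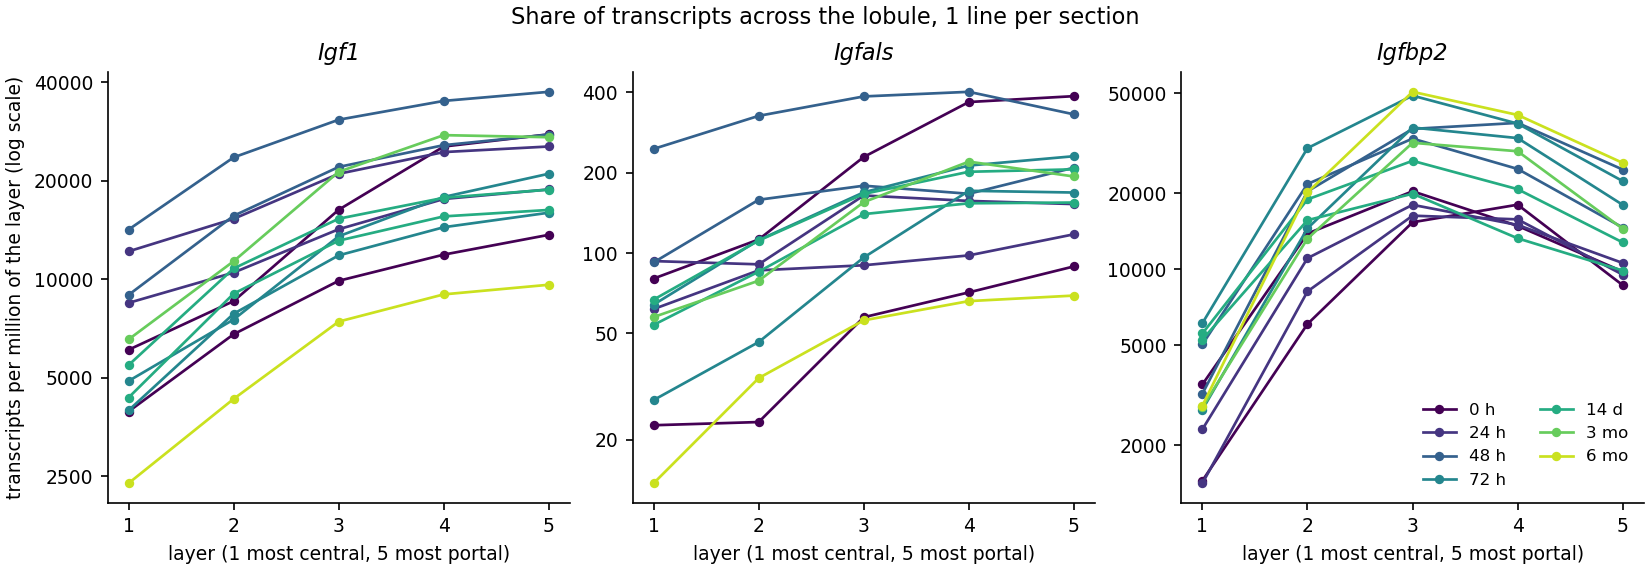
Transcripts per 1000000 of each layer's transcripts (log scale) for Igf1, Igfals and Igfbp2, across 5 layers from the most central (1) to the most portal (5), 1 line per section for 12 sections, coloured by time. Igf1 rises towards the portal side in every section, whereas Igfbp2 is highest in layer 3 in 10 sections and in layer 4 in the other two.

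A mid-lobule excess, the log2 of the share in layer 3 over the mean of layers 1 and 5, measured this. For Igfbp2 it was 1.61 and 1.62 at 0 h, 1.48 and 1.58 at 24 h, 1.75 and 1.36 at 48 h, and 1.81 and 1.78 at 72 h. It was 1.55 and 1.40 at 14 d, 1.87 at 3 mo and 1.79 at 6 mo, so that layer 3 held 2.57 to 3.67 times the mean of the ends. It passed at all 7 times in limma (adjusted p from 3.84e-05 to 0.000718 over 62 genes). An excess above 0 passed in 16.1% of the 62 genes at 0 h, and in 14.5%, 35.5%, 38.7%, 32.3%, 17.7% and 19.4% at the later times in their order. By size Igfbp2 ranked first of 62 genes in 11 of 12 sections, and second to Ccnd1 (1.65 against 1.58), the cyclin D1 gene that drives entry into the cell cycle, in section 2 of 24 h. The nearest genes by the median over sections were Ccnd1 (0.95), Pon1 (0.84), a serum esterase gene, and the urea cycle gene Cps1 (0.81), against 1.61 for Igfbp2.

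**Figure D3:**
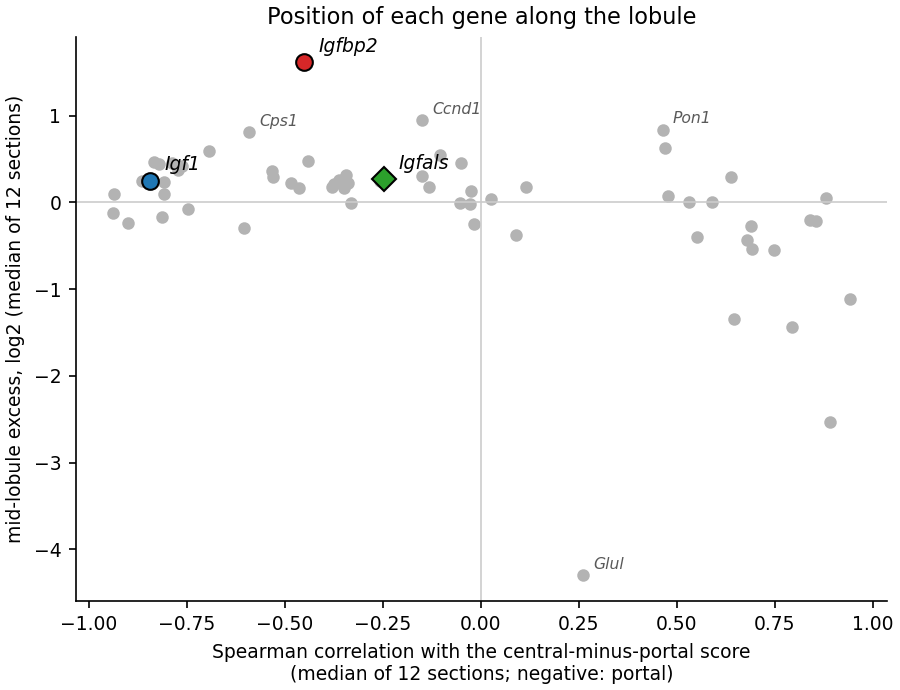
Each point is a gene, placed by the median over 12 sections of its Spearman correlation with the central-minus-portal score (horizontal axis, negative is portal) and of its mid-lobule excess in log2 (vertical axis), for 62 genes tested (circles) and Igfals, which was too scarce for the test (diamond). Igfbp2 lies highest, at 1.61, and Igf1 on the portal side, at -0.84.

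Igf1 had a small mid-lobule excess beside its gradient, from -0.05 to 0.35, which passed at 2 of 7 times (48 h and 14 d), and at 0 with transcripts per tile in place of shares or without either placed 14 d section. The correlation of Igfbp2 with the score was weaker than that of Igf1 in each of the 12 sections, at -0.58 to -0.17. A peak between the veins lowers such a correlation, which does not measure the difference between the ends. Layer 5 held 1.88 to 9.18 times the Igfbp2 share of layer 1 (median 4.84), against a median of 3.61 for Igf1. The gradient of Igfbp2 passed at 6 of 7 times, the exception being 14 d (limma adjusted p = 0.0834). With Cyp2e1 left out of the shares 5 of these 6 calls were lost, at 0 h (limma adjusted p = 0.359), 24 h (0.0561), 72 h (0.0969), 3 mo (0.266) and 6 mo (0.0813). The calls were also lost without section 1 of 0 h (Fisher z -0.27, limma adjusted p = 0.0672), section 2 of 48 h (-0.27, 0.114) and section 1 of 72 h (-0.35, 0.0755), each at its own time. Across tiles Igfbp2 correlated with Igf1 at a median Spearman of 0.51 (0.27 to 0.67 over 12 sections). It was most like C8b, a complement gene (0.68), Cps1 (0.67) and the apolipoprotein gene Apof (0.67).

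By the gradient and the mid-lobule excess, the place of neither gene changed detectably with time. Against 0 h the limma test called 0 of 6 times for the gradient and 0 of 6 for the mid-lobule excess, for Igf1 and for Igfbp2, with an unadjusted p under 0.05 at 0 of 6 in each case. Among all 62 genes the gradient differed from 0 h in 17.7%, 38.7%, 6.45%, 19.4%, 4.84% and 0% at the later times in their order, and the mid-lobule excess in 0%, 1.61%, 1.61%, 3.23%, 0% and 0%. The mid-lobule excess of Igfbp2 differed from 0 h by -0.14 to 0.26 over the 6 times, with an SE of 0.15 to 0.18. The fold of layer 5 over layer 1 is given by neither measure and was not tested. For Igf1 it was 4.555 and 3.47 at 0 h, 2.09 and 2.22 at 24 h, and 3.09 and 2.64 at 48 h. It was 4.30 and 4.02 at 72 h, 3.745 and 3.44 at 14 d, 4.15 at 3 mo and 4.04 at 6 mo. Per tile it was 3.12 and 2.56 at 0 h, 2.045 and 2.24 at 24 h, and 3.78 and 2.49 at 48 h. Both sections of 24 h thus lay below both of 0 h in either form. Without section 2 of 0 h, the gradient of Igf1 was called weaker than at 0 h at 3 of 6 times and that of Igfbp2 at 1 of 6.

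The maps of 2 sections from slide 2 show both patterns. At 0 h the middle 90% of tiles lay between 2445 and 15751 transcripts per 1000000 for Igf1 and between 686 and 25150 for Igfbp2. For the section of 6 mo these ranges were 1172 to 12531 and 502 to 67286, so that the lower bound of Igfbp2 was below that of 0 h and the upper bound above it. By layer the log2 difference of the 6 mo section from the 0 h section on its slide was -0.28 in layer 1, 0.54 in layer 2, 1.31 in layer 3, 1.46 in layer 4 and 1.43 in layer 5 for Igfbp2. For Igf1 it was -0.73, -0.66, -0.41, -0.40 and -0.51. Per tile the values of Igfbp2 were -0.70, 0.06, 0.84, 1.10 and 1.00. They compare 2 sections and have no replicate check.

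**Figure D4:**
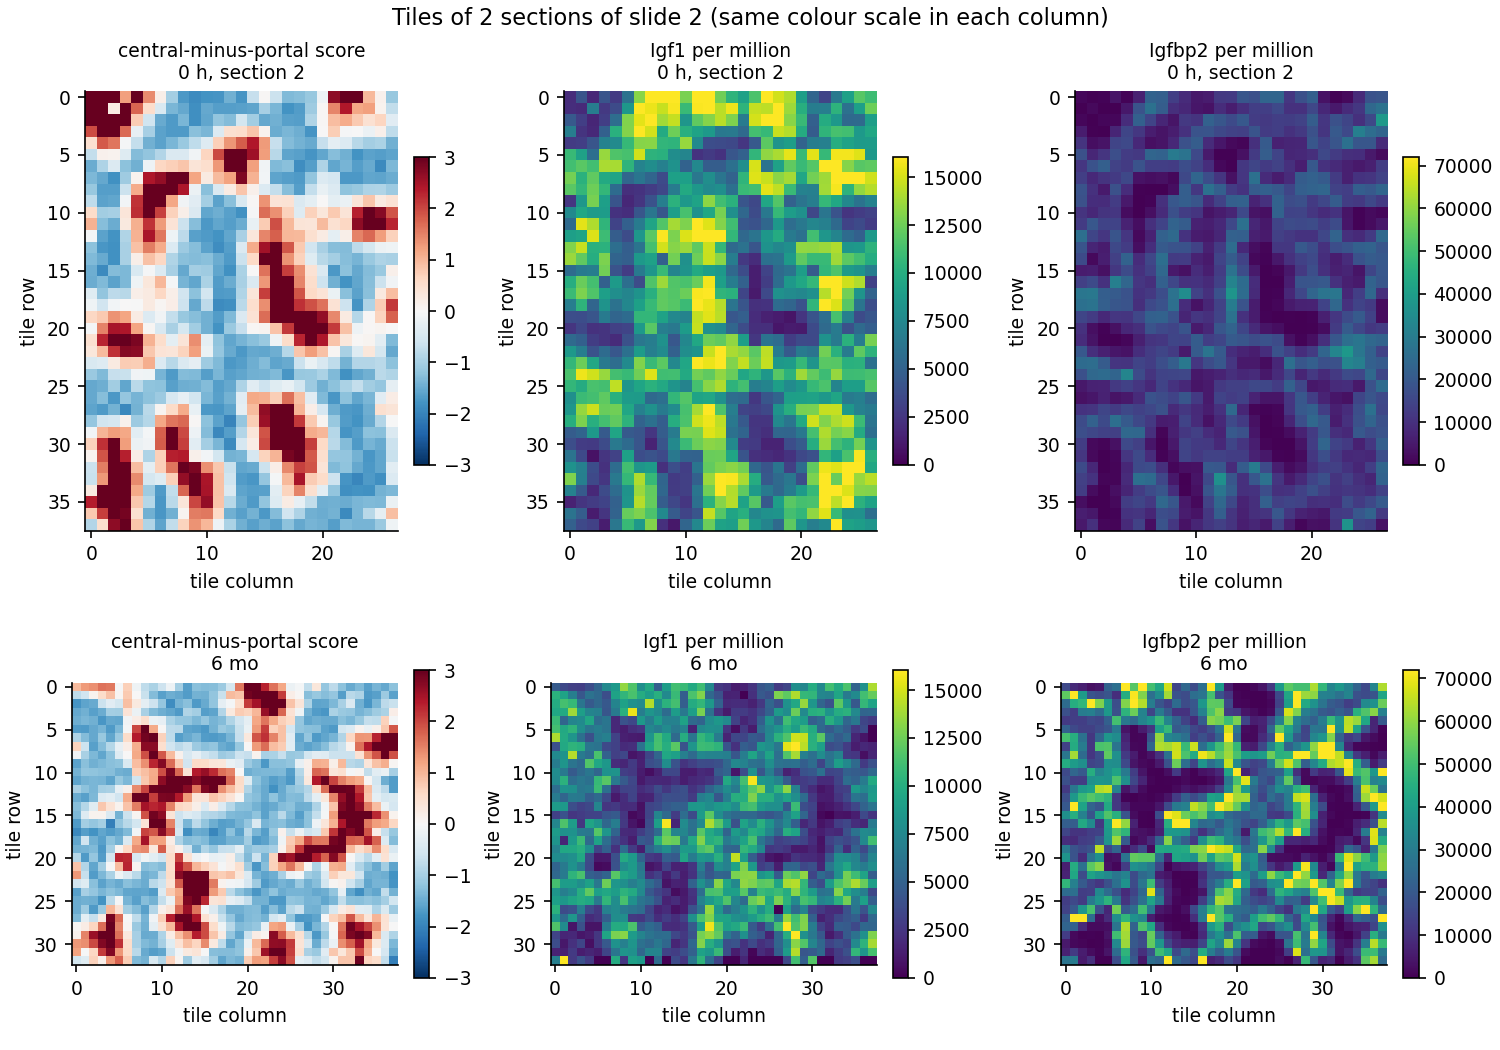
Tiles of section 2 at 0 h (top) and the section at 6 mo (bottom), both on slide 2, coloured by the central-minus-portal score (left, red is central), Igf1 (middle) and Igfbp2 (right), both in transcripts per 1000000 of the tile, with axes in tile columns and rows. Igf1 is low where the score is central, and Igfbp2 forms bands around the central areas that reach higher values at 6 mo.

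At 72 h the layers of Igfbp2 differed from 0 h on the same slide by 0.94, 1.26, 1.25, 0.88 and 1.06 in log2 share on slide 1 and by 0.81, 1.13, 1.26, 1.35 and 1.19 on slide 2. All 10 differences were above 0, from the central to the portal end. For Igf1 they ran from -0.51 to -0.19 on slide 1 and from 0.01 to 0.28 on slide 2, and thus went opposite ways as a share of the transcripts of a layer.

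Igfals followed the portal side where its few transcripts could be placed. It had under 500 transcripts in some sections, too few for the test, and is described only. In section 1 of 0 h its share went from 80.2 transcripts per 1000000 in layer 1 (104 counted) to 387 in layer 5 (342), and at 6 mo from 13.7 (16 transcripts) to 69.3 (59). Layer 5 held 1.35 to 5.99 times the share of layer 1 over 12 sections, and layer 1 was the lowest in 11 of 12. Its correlation with the score ran from -0.46 to -0.11, and the gene most like it across tiles was Igf1 (median Spearman 0.28), followed by the urea cycle gene Ass1 (0.28) and the fatty acid elongase gene Elovl2 (0.27).

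The third section of 14 d had no list of positions here but could be placed through its cells, whose names hold 2 numbers. Taken in reverse order these matched the transcript positions of the other sections, with a correlation of tile totals of 0.71 to 0.91. Placed this way, the section gave Igf1 a correlation of -0.68 and Igfbp2 a mid-lobule excess of 1.36, with 5272, 14471, 18228, 12512 and 8956 counts per 1000000 for Igfbp2 across the layers.

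Cells that carried a marker of another cell type were compared with the other cells of the same section, as a check on where the transcripts lie. Cells with at least 3 counts of Adgre1, the macrophage gene that encodes F4/80, made up 2.18% to 6.96% of a section. In them the share of Igf1 was higher in 13 of 13 sections, by 0.07 to 0.95 in log2 (median 0.25), and within the same layer by a median of 0.28. Igfbp2 was higher there in 10 of 13 sections (median 0.23), but by a median of 0.02 within the same layer. Cells with the leukocyte gene Ptprc also had more Igf1 in 13 of 13 sections (median 0.20). Within the same layer that median was 0.15 and the lowest section -0.08. Hepatocyte genes had a median of 0.03 in Adgre1 cells and 0.02 in Ptprc cells, so both held hepatocyte transcripts much as other cells did. The shares therefore do not show what macrophages or leukocytes express. The part of transcripts from neighbouring cells was not tested, and cells of a section are not replicates.

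Cells with the endothelial gene Pecam1 or the stellate gene Lrat, which encodes the enzyme that stores vitamin A, had shares of Igf1 and Igfbp2 near those of other cells. The medians ran from -0.09 to 0.05. Hepatocyte genes had a median of -0.02 with either marker, so these cells held hepatocyte transcripts much as other cells did. The shares therefore do not show what endothelial or stellate cells express. Cells with Sox9, a cholangiocyte gene, had a lower share of Igfbp2 in 13 of 13 sections (median -0.68, -0.88 within the layer), and hepatocyte genes stood at -0.25 there. That direction depends on the minimum of counts: in cells with at least 1 count of Sox9 the share of Igfbp2 was higher in 13 of 13 sections (median 0.16), and with at least 5 counts the median was -1.24. Their share of Igf1 was higher in 13 of 13 sections (median 0.48), but 0.07 within the layer. Igfals was lower in Adgre1 cells in 13 of 13 sections (median -0.37) and in Pecam1 cells in 13 of 13 (median -0.51), from as few as 2 and 6 counts a section.

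**Figure D5:**
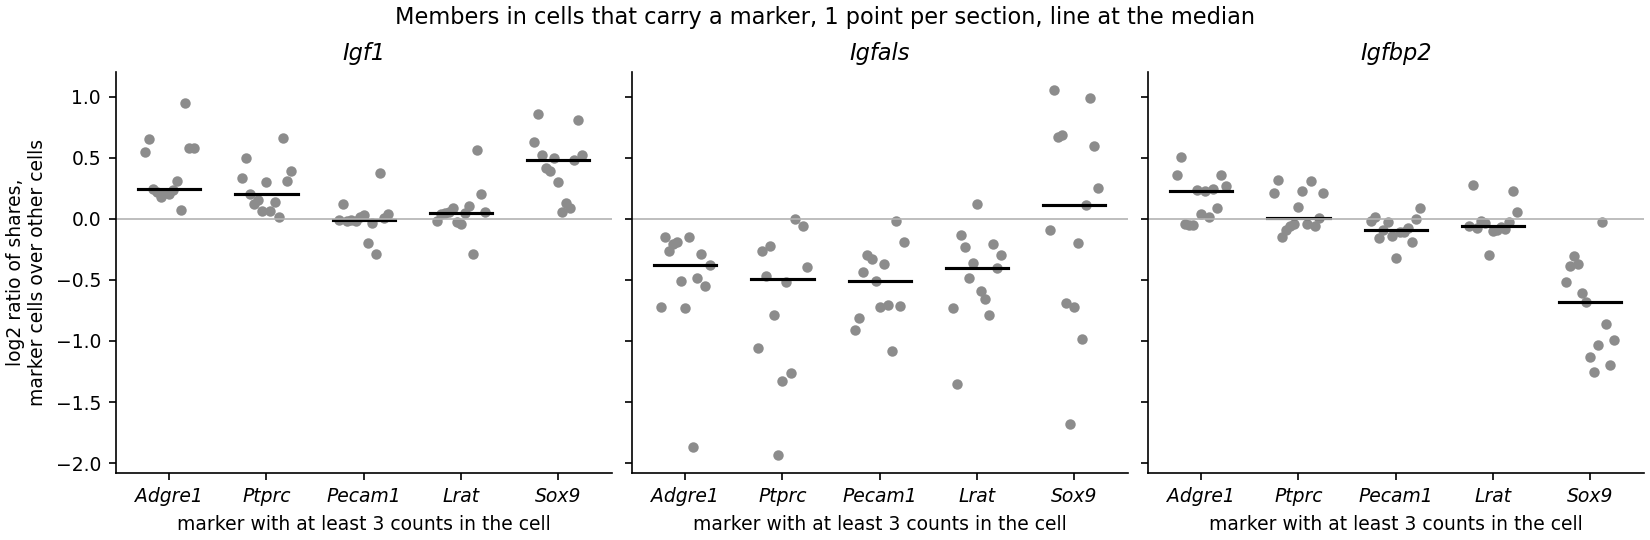
Log2 ratio of the share of Igf1, Igfals and Igfbp2 in cells with at least 3 counts of a marker over the share in the other cells of the section, 1 point for each of 13 sections and a line at the median. Igf1 is above 0 in all sections for Adgre1, Ptprc and Sox9, and Igfbp2 is below 0 in all sections for Sox9 at this minimum, where the median with at least 1 count is 0.16.

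Of 35 genes of the IGF, insulin and growth hormone pathways that were listed, 7 were in the panel: the members, Ccnd1 and the gluconeogenic genes G6pc, Pck1 and Fbp1. Receptors, STAT and SOCS genes and the other binding proteins were not among them. In edgeR 1 of 7 was called higher at 24 h, 48 h and 72 h, each time Ccnd1, where 15.2%, 11.1% and 9.09% of the 99 genes tested were called higher. At 14 d Ccnd1 was called higher (0.84 ± 0.24) and G6pc lower (-4.06 ± 0.95), where 15.2% of all genes tested were higher and 13.1% lower. The 0 h sections lay far apart for G6pc, at 13474 and 108643 CPM, against 2950, 3917 and 4092 at 14 d. The size of its fall thus depends on the section of 0 h. At 6 mo Ccnd1 (1.62 ± 0.31) and Igfbp2 were called higher and Igf1 lower. From 72 h to 14 d Ccnd1 fell by 1.10 ± 0.23 together with Igfbp2, while Fbp1 (0.28 ± 0.23 at 14 d) and Pck1 (-0.44 ± 0.38) did not pass against 0 h at 14 d. From 24 h to 6 mo the median log2 change of the 7 was -0.15, 0.35, -0.39, -0.44, 0.03 and -0.10, against -0.09, 0.21, 0.12, 0.07, -0.02 and -0.15 over all 99 genes.

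Over the 12 libraries the genes whose log2 CPM was most like that of Igf1 were Uqcrh, a gene of the respiratory chain (Pearson 0.89), the R-spondin receptor gene Lgr4 (0.87) and Rspo3 (0.80), which encodes an R-spondin. For Igfals they were Lgr4 (0.81), Igf1 (0.76) and Lect2 (0.69). For Igfbp2 they were Wnt8a (0.79), which encodes a Wnt ligand, the Wnt receptor gene Fzd9 (0.71) and the coreceptor gene Lrp6 (0.65). Wnt8a had only 1 to 17 counts in a section other than 6 mo, where it had 25, and 9.92 CPM at 6 mo against 0.28 to 3.39 elsewhere. Fzd9 and Lrp6 were also highest in the section of 6 mo, as was Igfbp2. Fzd9 stood at 35.3 CPM there against 5.93 to 19.8 elsewhere, and Lrp6 at 18828 against 5297 to 13209. The weight of that section in these correlations was not tested. These are descriptions over libraries that share the scaling, ranked among the genes tested.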

How the data were processed

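Whole-number transcript counts per gene and cell, and lists of transcript positions in a unit that is not stated, were deposited by the authors, per the file headers, for 13 and 12 sections. Decoding and cell outlining are not given in the sources used here. Counts were summed over cells; the 24 h sections, which share a slide position, were summed to 1 library. Of 100 genes, 99 reached 10 counts in 2 or more of the 12 libraries and were tested in a fit of all 7 times with edgeR 4.0.16 (TMM, robust quasi-likelihood, 5 residual degrees of freedom). The SE is the log2 change over the square root of F. Positions used tiles of 400 units with at least 50 transcripts and limma 3.58.1 (robust) for the 62 genes that had 500 transcripts or more in each section. All p-values were adjusted by Benjamini-Hochberg at 0.05. Both fits were also run on simulated data without slide effects, with planted changes larger than most changes of the members. Those runs do not show how well changes of the members' size are found. DESeq2 1.42.0, scaling, filter, block, tile and leave-one-out alternatives were run; 3 kinds were added after seeing the data: positions of cells, only the times with numbered sections, and comparison within a layer. Members and lists were chosen with earlier results of these data known. Named genes were the members, the pathway, score and cell type marker genes, and the 3 most alike per member across tiles and libraries. Pon1 was named after its mid-lobule excess was seen.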

Additional observations from a re-analysis of the deposited data

How the results depend on the processing

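Positions held better than levels: the mid-lobule excess of Igfbp2 passed at all 7 times under the alternatives run. In levels (log2 change against 0 h unless stated) many settings moved a call or a sign, and the cause was not tested. With total-count scaling Igf1 gave 0.13 at 14 d, 0.20 from 72 h to 14 d, 1.02 at 48 h, -1.08 at 6 mo and -1.10 from 48 h to 72 h, Igfals 0.081 at 3 mo, and Igfbp2 0.45 at 14 d, 0.084 at 24 h, 1.08 at 48 h and 1.20 at 72 h. Relative to cell number Igf1 gave 0.85 at 14 d, 0.42 from 72 h to 14 d, 1.07 at 48 h, -1.41 at 6 mo and 0.43 at 72 h. There Igfals gave 0.57 at 14 d, 0.14 from 72 h to 14 d, 0.086 at 3 mo and 0.43 at 72 h, and Igfbp2 1.20 at 14 d, -0.48 from 72 h to 14 d, 0.16 at 24 h, 1.12 at 48 h, 1.11 at 6 mo and 1.68 at 72 h. At this scaling edgeR called Igf1 higher at 14 d (adjusted p = 0.0287) and 48 h (0.0343). It also called Igfbp2 higher at 14 d (adjusted p = 0.00387), 48 h (0.0229) and 72 h (0.00221). The median log2 change of all genes tested was then 1.57 at 14 d, 0.97 at 48 h and 1.05 at 72 h. DESeq2 gave Igf1 -0.60 at 14 d, 0.050 from 72 h to 14 d, -0.65 at 72 h and -0.85 from 48 h to 72 h, and Igfals -1.93 at 6 mo. Scaling without Cyp2e1 gave Igf1 -0.70 at 14 d, which was called. With the 14 d sections as 1 library Igf1 gave 0.032 from 72 h to 14 d, -0.071 at 24 h and -1.17 at 6 mo, and Igfbp2 -0.94 and 1.23 for the first and last of these. With the slide as a block Igf1 gave -0.044 at 24 h, -0.035 at 3 mo and -1.18 at 6 mo, and Igfbp2 0.00041 at 24 h, 0.79 at 6 mo and -0.013 from 48 h to 72 h. From 48 h to 72 h Igf1 gave -0.82 with no filter, -0.83 with the 24 h sections as 2 libraries and -0.83 with 0 h, 48 h, 72 h and 14 d only, and was called in each, as it was with total-count scaling and DESeq2. Over all transcripts Igfbp2 gave 1.07 at 6 mo and the Igf1 to Igfals ratio -0.25 at 14 d. Section numbers did not pair the sections (correlation of deviations -0.51 to 0.21), and with the replicate block Igfbp2 gave -0.87 from 72 h to 14 d (edgeR adjusted p = 0.0762).

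Leaving out 1 section at a time, Igf1 ranged from -0.86 to -0.33 at 14 d, -0.29 to 0.13 from 72 h to 14 d, -0.39 to 0.51 at 24 h, -0.11 to 0.42 at 3 mo, -0.73 to -0.30 at 72 h and -0.96 to -0.66 from 48 h to 72 h. Igfals ranged from -1.55 to 0.41 at 14 d, -1.08 to 0.93 at 24 h, -1.02 to 0.93 at 3 mo, -0.36 to 1.504 at 48 h, -2.67 to -0.60 at 6 mo and -1.05 to 0.79 at 72 h. Igfbp2 ranged from -0.66 to 0.0052 at 14 d, -1.18 to -0.89 from 72 h to 14 d, -0.68 to 0.083 at 24 h, -0.16 to 0.51 at 3 mo, -0.052 to 0.68 at 48 h, 0.95 to 1.51 at 6 mo and 0.31 to 1.09 at 72 h. The log2 ratio differences ranged from -0.68 to 0.75 (Igf1 to Igfals, 14 d), -1.01 to 0.41 (48 h and 72 h), -0.35 to 0.85 (Igfbp2 to Igf1, 14 d), -1.02 to 1.60 (Igfbp2 to Igfals, 14 d) and -1.004 to 1.62 (48 h and 72 h). Times with a changed gradient went from 0 to 3 for Igf1 and 0 to 1 for Igfbp2, and times with a mid-lobule excess of Igf1 from 0 to 3. The Igfbp2 gradient (Fisher z) ranged from -0.66 to -0.27 at 0 h, -0.26 to -0.17 at 14 d, -0.62 to -0.27 at 48 h and -0.55 to -0.35 at 72 h. With shares without Cyp2e1 it was -0.12 at 0 h, -0.38 at 24 h, -0.22 at 3 mo, -0.35 at 6 mo and -0.23 at 72 h, and none of these 5 was called, and with transcripts per tile -0.26 at 14 d. The excess of Igf1 passed at 1 time with a score or a share without Cyp2e1 or with tiles of 200 units, and at 0 with transcripts per tile. Depth limits Igfals at 6 mo, with 118 counts, while at 0 h its sections lay further apart than their counting intervals.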
